A study of Mus musculus with 12 samples.

Results

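The genes described here are 10 clade A serpins that lie in 1 gene cluster on mouse chromosome 12: Serpina1a, Serpina1b, Serpina1c, Serpina1d, Serpina1e, Serpina3c, Serpina3k, Serpina3m, Serpina3n and Serpina6. They were taken by symbol from the 53715 genes listed in the count table, and they were chosen by their measured RNA levels in the 3 groups, which were already known. Their levels and differences are therefore given as a description, with standard errors and without p-values. RNA-seq was done on primary liver cells of C57BL/6JOlaHsd mice in 3 groups of 4 libraries each. Hepatoblasts, the fetal progenitors of hepatocytes and bile duct cells, were taken at E14.5, in mid-gestation, from pooled embryonic livers by magnetic selection for the surface protein Dlk1, and their RNA was prepared directly. Diff. hepatocytes were hepatoblasts isolated in the same way and then kept for 4 days on fibronectin under Matrigel in a medium with dexamethasone, a synthetic glucocorticoid, and an insulin, transferrin and selenium supplement. Mature hepatocytes were isolated by collagenase perfusion from livers of male mice of 8 to 12 weeks and were not cultured. The comparison of the first 2 groups asks what changed during differentiation in culture, and the mature cells give the adult state. The mature cells differed from hepatoblasts in age and isolation method, and from the Diff. cells in culture as well, and the sex of the embryos is not given in the sources used here, so the effects of these factors cannot be told apart. In these bulk samples, fewer cells of a type and less RNA per cell cannot be told apart either.

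Serpins are proteins that present an exposed peptide, the reactive centre loop, as bait to a target protease. The protease cuts the loop and is trapped in a covalent complex as the serpin changes shape. Some clade A serpins have lost this activity and carry hormones instead. The liver secretes most clade A serpins into plasma. Mice carry several copies of the Serpina1 gene, which encodes alpha-1-antitrypsin, the main plasma inhibitor of neutrophil elastase, and several copies related to human SERPINA3, which encodes alpha-1-antichymotrypsin. Serpina6 encodes corticosteroid-binding globulin, the plasma carrier of glucocorticoids.

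In the GENCODE M21 annotation of the GRCm38 genome, the cluster spans chr12:103614786-104414329, which is 799.5 kb, and holds 28 Serpina genes, 23 of them protein-coding and 5 pseudogenes. Serpina6 is near one end, on the minus strand at chr12:103646630-103657212. The Serpina1 paralogs follow on the minus strand, from the start of Serpina1b at chr12:103728156-103830373 to Serpina1e at chr12:103946931-103958975. Serpina1d at chr12:103763594-103773592 lies within the span of Serpina1b without sharing exon bases with it. Serpina1a is at chr12:103853589-103863562 and Serpina1c at chr12:103894926-103904887. Serpina3c is on the minus strand at chr12:104146382-104153870, and Serpina3k, Serpina3m and Serpina3n are on the plus strand at chr12:104338486-104346144, chr12:104338486-104394257 and chr12:104406729-104414329. Serpina3k and Serpina3m share 60 exon bases on the same strand. Serpina1c overlaps 429 exon bases of the antisense gene B430119L08Rik on the opposite strand, and reads from these bases cannot be told apart without strand.

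The paralogs are so alike that a 75-base read often fits more than 1 of them. The coding sequences of the Serpina1 paralogs were 96.29 to 98.47% identical in 10 pairs, and those of the Serpina3 members 82.93 to 91.67% identical in 6 pairs. A Serpina1 and a Serpina3 coding sequence were 55.93 to 58.52% identical, and Serpina6 was 51.69 to 54.81% identical to the others. The 60 bases below code for part of the reactive centre loop of the Serpina1 paralogs, the stretch that meets the protease. They are shown because the paralogs differ there at 18 positions, marked by capitals, so that reads over these bases can be assigned.
Serpina1a: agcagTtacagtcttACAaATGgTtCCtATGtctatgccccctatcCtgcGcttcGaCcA
Serpina1b: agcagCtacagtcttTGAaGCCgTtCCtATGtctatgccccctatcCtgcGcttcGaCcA
Serpina1c: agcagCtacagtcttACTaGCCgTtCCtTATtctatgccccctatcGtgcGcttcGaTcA
Serpina1d: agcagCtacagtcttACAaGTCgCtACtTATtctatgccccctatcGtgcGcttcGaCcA
Serpina1e: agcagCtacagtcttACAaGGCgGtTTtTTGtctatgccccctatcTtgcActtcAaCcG

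The matching stretch of the Serpina3 members, 60 to 69 bases long, is shown next to make the contrast with the Serpina1 paralogs visible. Capitals mark the bases in its 45 variable alignment columns, some of which are gaps in the shorter genes.
Serpina3c: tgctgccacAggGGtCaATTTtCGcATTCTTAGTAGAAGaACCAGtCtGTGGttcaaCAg
Serpina3k: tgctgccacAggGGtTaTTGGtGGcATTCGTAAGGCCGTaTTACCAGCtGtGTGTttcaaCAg
Serpina3m: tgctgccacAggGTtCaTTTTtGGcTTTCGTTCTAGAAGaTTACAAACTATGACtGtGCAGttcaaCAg
Serpina3n: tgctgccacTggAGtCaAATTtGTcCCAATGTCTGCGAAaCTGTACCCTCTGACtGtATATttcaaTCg

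Outside such stretches much of the Serpina1 sequence is shared. Of all 75-base windows of the annotated exons, 73.6% in Serpina1c, 49.3% in Serpina1a, 37.1% in Serpina1d, 19.7% in Serpina1e and 19.0% in Serpina1b also occurred in another gene. The corresponding share was 9.65% in Serpina3m, 7.36% in Serpina3k, 1.46% in Serpina3n, 0.327% in Serpina3c and 0% in Serpina6. Reads that fit several genes can be lost or misplaced, so levels of Serpina1c, Serpina1a and Serpina1d are uncertain, and their fold changes are uncertain where a paralog with shared windows differed between groups.

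The libraries held 19581551 to 25216977 counts on genes. Levels are given in CPM, read counts scaled to a common library size with TMM factors that allow for composition. These factors were 1.23 to 1.44 in hepatoblasts, 1.03 to 1.08 in Diff. hepatocytes and 0.677 to 0.778 in mature hepatocytes. All 11 hepatocyte marker genes found had counts in every group, though at unlike levels. Dlk1 and Afp, which are among the 11, were highest in hepatoblasts. Dlk1, the selection marker, averaged 3523 CPM in hepatoblasts, 94.2 CPM in the Diff. cells and 4.19 CPM in the mature cells. Afp averaged 39337, 18609 and 42.3 CPM in the same order. Hepatoblast replicate 1 stood apart. It held 2463 CPM summed over 9 erythroid markers against 299.96 to 490.2 CPM in the other hepatoblast libraries, 527 CPM over 12 neutrophil and mast cell markers against 37.0 to 60.2 CPM, and 280.3 CPM over 9 macrophage markers against 66.8 to 78.2 CPM. Its hepatocyte marker sum was 65424 CPM against 87213 to 110712 CPM, and it was the lowest hepatoblast library for all 9 serpins described that had counts in hepatoblasts. Mesenchymal markers summed to 1269 to 3230 CPM in the Diff. cells, 761 to 1355 CPM in the hepatoblasts and 62.1 to 83.2 CPM in the mature cells. Bile duct markers summed to 92.7 to 232.5 CPM in the Diff. cells, 26.9 to 35.7 CPM in the hepatoblasts and 37.4 to 66.03 CPM in the mature cells. Endothelial markers summed to 11.4 to 19.4 CPM in the Diff. cells, 34.2 to 134 CPM in the hepatoblasts and 128 to 231 CPM in the mature cells. By the call rule given below, 6 of these 8 genes were lower in Diff. hepatocytes than in hepatoblasts, as were 14% of all genes tested. In mature hepatocytes 5 of the 8 were higher than in hepatoblasts, as were 20.1% of all genes tested. The erythroid sum was 6.13 to 24.1 CPM in the Diff. cells and 135 to 185 CPM in the mature cells. Nearly all of the mature sum was Alas2, at 130 to 177 CPM. In mature hepatocytes Alas2 was higher than in hepatoblasts and the other 8 erythroid genes were lower, as were 24.7% of all genes tested. All 9 erythroid genes were lower in Diff. hepatocytes than in hepatoblasts. The part of other cell types in the serpin values was not tested. Without hepatoblast replicate 1, the log2 fold changes of the 10 serpins against hepatoblasts moved by little, for example from 1.59 to 1.49 for Serpina1a and from -9.24 to -9.36 for Serpina6 in Diff. hepatocytes.

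**Figure D1:**
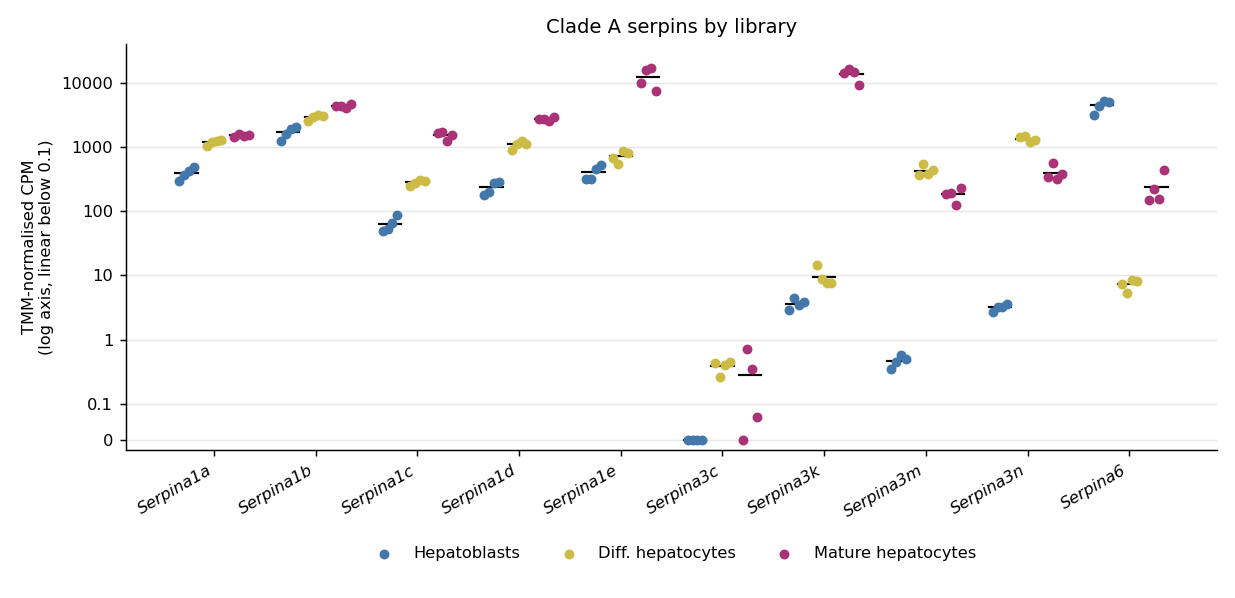
TMM-normalised CPM of the 10 serpins (log axis, linear below 0.1 CPM) in every library, with 4 points per group and a black bar at the group mean. Serpina6 is highest in hepatoblasts, Serpina3m and Serpina3n are highest in Diff. hepatocytes, and the Serpina1 paralogs and Serpina3k are highest in mature hepatocytes.

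Of the 10 serpins, 9 fell into 3 orders of the group means, and Serpina3c was hardly detected. The Serpina1 paralogs and Serpina3k were lowest in hepatoblasts, intermediate in Diff. hepatocytes and highest in mature hepatocytes, except that with library totals Serpina1a was 0.18 higher on the log2 scale in the Diff. than in the mature cells. Serpina3m and Serpina3n were below 4 CPM in the hepatoblasts, highest in Diff. hepatocytes and lower in mature hepatocytes. Serpina6 was highest in hepatoblasts, at 4437 ± 916 CPM (SD, n = 4), and lowest in Diff. hepatocytes. Serpina3k stood apart from the Serpina1 paralogs in reaching at most 14.4 CPM in the Diff. cells while it averaged 13432 ± 3039.9 CPM in mature hepatocytes. Together the 10 genes held 0.939 ± 0.136% of all gene counts in hepatoblasts, 0.833 ± 0.0370% in the Diff. cells and 2.70 ± 0.653% in the mature cells. The similar share in the first 2 groups came in part from different genes. Serpina6 alone held 0.576 ± 0.0845% of the counts in hepatoblasts and 0.000769% in the Diff. cells. The Serpina1 paralogs held 0.362 ± 0.0558% in hepatoblasts and 0.645 ± 0.0494% in the Diff. cells.

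All 10 genes passed the filter of more than 10 counts in any library, Serpina3c only through 11 counts in 1 mature library. A gene was called where the adjusted p was under 0.01 and the absolute log2 fold change over 1. In Diff. hepatocytes against hepatoblasts, 8 of the 10 were called, 7 higher and 1 lower, where 28.9% of the 17779 genes tested were called, 14.9% higher and 14% lower. In mature hepatocytes against hepatoblasts 10 were called, 9 higher and 1 lower, against 44.8% of all genes, 20.1% higher and 24.7% lower, and in Diff. against mature hepatocytes 7 were called, 2 higher and 5 lower, against 35.8%, 20.2% higher and 15.6% lower. Since the genes were chosen with these values known, these counts describe them and support nothing. Over the 10 genes the log2 fold change had a median of 1.87 in Diff. hepatocytes and 4.78 in mature cells against hepatoblasts, and -0.96 in Diff. against mature hepatocytes, where the medians over all genes tested were -0.01, -0.15 and 0.09. With Serpina3c at the lower bound that its counts allow, the first 2 medians were 1.80 and 4.07. The 2 groups being compared had no overlapping libraries for 10 of the 10 genes in the first comparison, 9 in the second and 9 in the third, where 57.5%, 66% and 61.6% of all genes tested did not overlap. Scaling by library totals instead of TMM shifted the median of all genes by -0.32, -0.85 and 0.53 in the 3 comparisons, and it turned 1 difference among the 10 serpins: Serpina1a in Diff. against mature hepatocytes went from -0.35 to 0.18. With those totals the calls of Serpina1b in mature hepatocytes against hepatoblasts and of Serpina1d in Diff. against mature hepatocytes were lost, at log2 fold changes of 0.52 and -0.79.

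**Figure D2:**
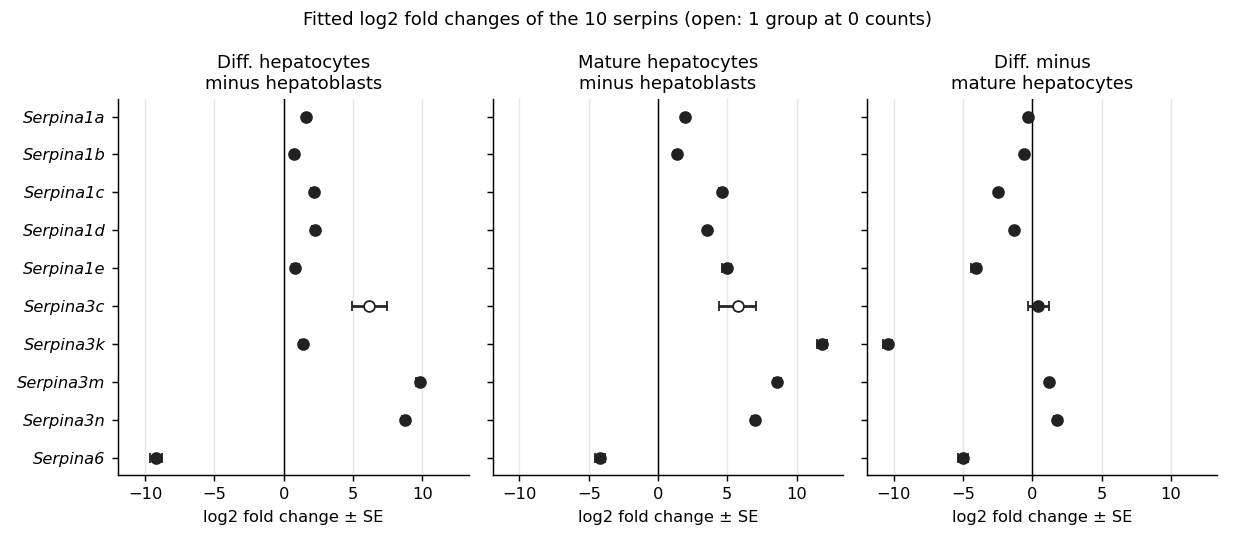
Fitted log2 fold changes (points) with standard errors (bars) of the 10 serpins in the 3 comparisons, 4 libraries per group. Open points mark Serpina3c against hepatoblasts, where all 4 libraries held 0 counts and the fitted value is no bound. Serpina3k shows the largest value in each comparison with mature hepatocytes, at 11.84 and -10.46.

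Among the alpha-1-antitrypsin genes, Serpina1b had the most counts in both embryo-derived groups. Its level was 1229.6, 1588, 1916 and 2044 CPM in the 4 hepatoblast libraries, 2511, 2873, 3108 and 3021 CPM in the Diff. cells, and 4318, 4298, 4080.0 and 4723 CPM in the mature cells. The groups did not overlap, but the steps were the smallest of the 5 paralogs, with log2 fold changes of 0.76 ± 0.15 (SE) in Diff. hepatocytes and 1.36 ± 0.15 in mature hepatocytes against hepatoblasts.

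Serpina1a, whose coding sequence was 97.01% identical to that of Serpina1b, came close to its adult level in culture. It was at 294, 369, 427 and 482 CPM in the hepatoblasts, 1028, 1213, 1239 and 1265 CPM in the Diff. cells and 1428, 1562, 1483 and 1560.1 CPM in the mature cells. All Diff. libraries lay above all hepatoblast libraries and below all mature libraries. The log2 fold change was 1.59 ± 0.14 in Diff. hepatocytes and 1.94 ± 0.14 in mature hepatocytes against hepatoblasts, and -0.35 ± 0.14 between the hepatocyte groups.

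Serpina1d and Serpina1c had larger steps. Serpina1d was at 177, 202, 273 and 285 CPM in the hepatoblasts, 904, 1122, 1258 and 1101 CPM in the Diff. cells and 2749.6, 2705, 2571 and 2872 CPM in the mature cells. Serpina1c was at 49.4, 52.5, 66.2 and 85.9 CPM, then 247, 275, 309 and 294 CPM, then 1658, 1734, 1247 and 1543 CPM in the same order of groups. Both were 4 to 5 times higher in Diff. hepatocytes than in hepatoblasts, at fitted folds of 4.67 for Serpina1d and 4.43 for Serpina1c. They differed in what remained to the adult level: Diff. hepatocytes were 2.49 times below mature hepatocytes for Serpina1d and 5.50 times below for Serpina1c.

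Serpina1e had the highest mean of the 5 paralogs in the mature cells and the largest difference between the hepatocyte groups, at -4.11 ± 0.30. Its level was 315, 318, 458 and 522 CPM in the hepatoblasts and 683, 545, 855 and 803 CPM in the Diff. cells, and it reached 9914, 15790.2, 16617 and 7433 CPM in the mature cells. Diff. hepatocytes lay above hepatoblasts without overlap, at a log2 fold change of 0.84 ± 0.26, while mature hepatocytes were higher by 4.95 ± 0.31. Serpina1c rose nearly as much in mature hepatocytes against hepatoblasts, by 4.61 ± 0.19. Serpina1e also varied most of the 5 paralogs among the mature libraries: its coefficient of variation over the 4 mature libraries was 36.0%, against 4.296% for Serpina1a, 4.56% for Serpina1d, 6.16% for Serpina1b and 13.8% for Serpina1c. Over all 8074 genes with a mean of at least 10 CPM in the mature cells, the median coefficient of variation was 11.2% and the 90th percentile 26.2%.

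Because of these unequal steps the make-up of alpha-1-antitrypsin RNA differed between groups. Serpina1b held 60.8 ± 1.48% of the summed Serpina1 counts in hepatoblasts, 46.7 ± 0.717% in the Diff. cells and 19.9 ± 4.83% in the mature cells. Serpina1e held 14.4 ± 1.26% and 11.7 ± 1.77% in the first 2 groups, whose libraries overlapped, and 53.7 ± 10.5% in the mature cells. Serpina1d was at 8.40 ± 0.320%, 17.7 ± 0.984% and 12.4 ± 2.83%, and Serpina1a at 14.1 ± 0.402%, 19.3 ± 0.760% and 6.85 ± 1.32%. For Serpina1a and Serpina1d the share was highest in Diff. hepatocytes. When counts were divided by the number of 75-base positions unique to each gene, Serpina1b held 42.5%, 27.7% and 10.9% and Serpina1e 15.3%, 10.5% and 44.9%, while Serpina1c went up from 2.27%, 4.56% and 7.05% to 8.77%, 14.9% and 21.2%. The summed level of the 5 paralogs was 2788 ± 609 CPM in the hepatoblasts, 6163 ± 609 CPM in the Diff. cells and 22572 ± 4086 CPM in the mature cells.

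**Figure D3:**
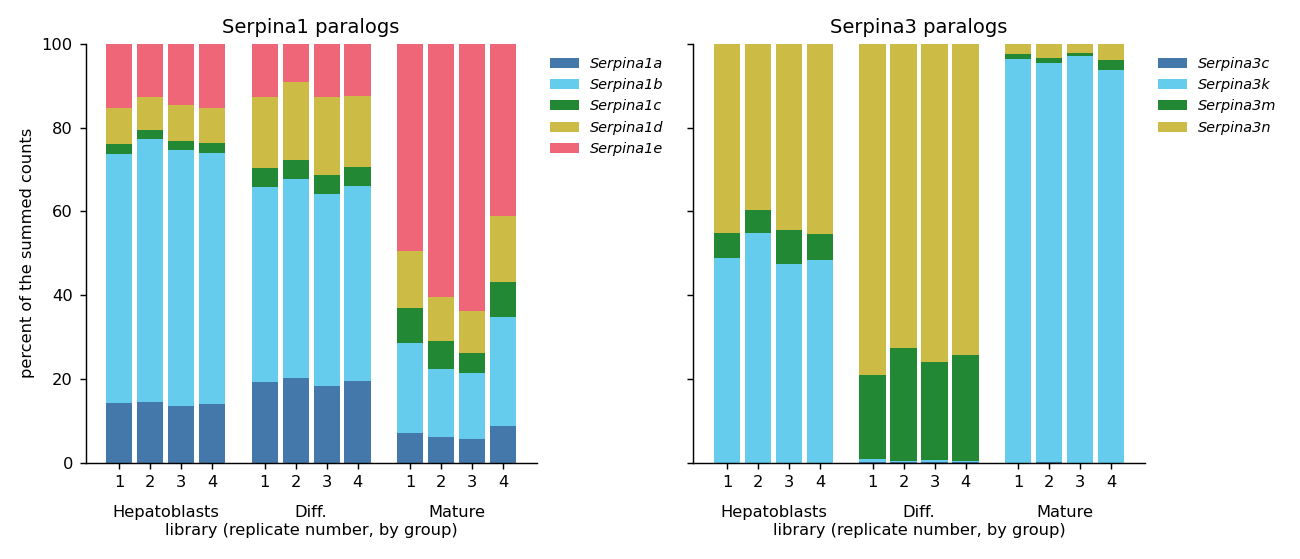
Percent of the summed counts held by each Serpina1 paralog (left) and each Serpina3 member (right) in every library, as stacked bars numbered by replicate within each group. Serpina1b is the largest part in hepatoblasts and Diff. hepatocytes and Serpina1e in mature hepatocytes. Among the Serpina3 members, Serpina3n leads in Diff. hepatocytes and Serpina3k makes up 93.7 to 97.0% in the mature cells.

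The Serpina3 members diverged further. Serpina3k, also known as contrapsin or kallikrein-binding protein, was at 2.90, 4.42, 3.43 and 3.84 CPM in the hepatoblasts, 14.4, 8.65, 7.55 and 7.59 CPM in the Diff. cells and 14021, 16034, 14622 and 9051 CPM in the mature cells. The log2 fold change was 1.39 ± 0.25 in Diff. hepatocytes and 11.84 ± 0.35 in mature hepatocytes against hepatoblasts. The Diff. value was raised by replicate 1: without that library it was 1.12.

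Serpina3n, an acute-phase inhibitor known to block granzyme B and elastase, had the opposite order of the hepatocyte groups. Its level was 2.68, 3.19, 3.21 and 3.61 CPM in the hepatoblasts, 1444, 1457, 1209.7 and 1269 CPM in the Diff. cells, and 337, 561, 320.5 and 379 CPM in the mature cells. Diff. hepatocytes were 423 times above hepatoblasts and 3.37 times above mature hepatocytes, at log2 fold changes of 8.73 ± 0.23 and 1.75 ± 0.17. Serpina3m, its neighbour, was at 0.355, 0.448, 0.583 and 0.497 CPM in the hepatoblasts, 365, 539, 375 and 431 CPM in the Diff. cells and 185, 189, 127 and 230.4 CPM in the mature cells. Its log2 fold changes were 9.81 ± 0.27 and 8.59 ± 0.26 against hepatoblasts and 1.23 ± 0.17 between the hepatocyte groups. In both genes every Diff. library lay above every mature library.

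Serpina3c was hardly detected. It had 0 counts in the 4 hepatoblast libraries, 10, 6, 9 and 9 counts in the Diff. cells and 0, 11, 6 and 1 counts in the mature cells. Against a floor of 3 counts per library, Diff. hepatocytes were at least 4.01-fold higher than hepatoblasts. The mature libraries overlapped with both other groups, and the call against hepatoblasts was lost without mature replicate 2 and when only the 8 libraries of the 2 groups were fitted.

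As in the Serpina1 family, the Serpina3 make-up was a different one in each group. Serpina3k held 49.9 ± 3.33% of the summed Serpina3 counts in hepatoblasts, 0.535 ± 0.171% in the Diff. cells and 95.7 ± 1.45% in the mature cells. The hepatoblast value stands on a summed level of only 7.29 ± 0.980 CPM, against 1782 ± 176 CPM in the Diff. cells and 14014 ± 3056 CPM in the mature cells. Serpina3n held 75.5 ± 2.78% and Serpina3m 23.9 ± 2.94% in the Diff. cells.

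Serpina6 was the 1 gene of the 10 with its highest level in hepatoblasts. It was at 3153, 4405, 5106 and 5082 CPM in the hepatoblasts, 7.31, 5.25, 8.48 and 8.33 CPM in the Diff. cells, and 150.4, 225, 154 and 431 CPM in the mature cells. The groups were far apart, and Diff. hepatocytes lay below both fresh groups: 604 times below hepatoblasts, at a log2 fold change of -9.24 ± 0.43, and 32.7 times below mature hepatocytes, at -5.03 ± 0.36. Mature hepatocytes were lower than hepatoblasts by a log2 fold change of -4.21 ± 0.34.

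Levels of different genes can be compared only per length. On the scale of CPM per kb of annotated exon, Serpina6 led in hepatoblasts at 2519 ± 520 CPM per kb, followed by Serpina1b at 702 ± 151 CPM per kb. Serpina1e, Serpina1a and Serpina1d came next, with ranges that overlapped between neighbours, then Serpina1c at 46.7 ± 12.2 CPM per kb, and all Serpina3 members were below 3 CPM per kb. In Diff. hepatocytes Serpina1b led at 1192 ± 109 CPM per kb, above Serpina1d, Serpina3n and Serpina1a, whose ranges overlapped between neighbours. Serpina1e, then Serpina3m and Serpina1c with overlapping ranges, followed, and Serpina3k and Serpina6 overlapped at 4.64 ± 1.59 and 4.17 ± 0.846 CPM per kb. In mature hepatocytes Serpina1e at 7692 ± 2769 and Serpina3k at 6530 ± 1478 CPM per kb overlapped at the top. Serpina1d and Serpina1b overlapped below them, Serpina1c and Serpina1a followed, and Serpina3n, Serpina6 and Serpina3m overlapped between neighbours. Per kb of sequence unique to each gene, Serpina1c moved up to the third place in mature hepatocytes, at 4546 ± 629 CPM per kb of unique positions. Serpina1d lay above Serpina1b there without overlap. In Diff. hepatocytes on that scale, Serpina1b at 1533 ± 140 and Serpina1d at 1320 ± 176 CPM per kb overlapped at the top. Serpina1a came next, and Serpina1c took place 4.

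For each serpin, the genes most like it were those with the smallest root mean square difference in centred log2 CPM over the 12 libraries, among 8697 other genes with a mean of at least 10 CPM. Serpina1a was followed most closely by Lurap1l at 0.13, Furin at 0.13 and F2, the prothrombin gene, at 0.13. Serpina1b was most like Hpn at 0.10, F12 at 0.10 and Tcn2 at 0.10. Serpina1c lay nearest to Sec14l4, Ndrg2 and Cyp2d10, at 0.14 to 0.16, and Serpina1d to Cyp4f13 at 0.13 and Serping1 at 0.17. Serpina1e had looser matches in Ttc39c, Ifitm3 and Scp2, at 0.29 to 0.35, and Serpina3k in Mug1, Cyp4a12a and Tdo2, at 0.37 to 0.41. Serpina3m was nearest to Apoa4 at 0.42, Cyp3a59 at 0.68 and Cps1 at 0.71, and Serpina3n to Cyp3a59 at 0.42, Hp at 0.62 and Fetub at 0.72. Serpina6 had no close match, with Mmd2 at 0.88, Fosb at 1.25 and Fos at 1.53. Serpina3c, with its few counts, was nearest to Snx10, Neat1 and Malat1 at 0.55 to 0.68.

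Promoter sequences were found in RefSeq (build GRCm38.p6) for 7 of the 10 genes, covering 250 bases before to 50 bases after the start. The Serpina1 promoters were 91.7 to 98.39% identical over their aligned bases in 10 pairs. Each holds the letters GTTAAT. The 90 bases around it are shown, with GTTAAT in capitals, because Serpina1b and Serpina1e, the paralogs with the smallest and the largest step to mature hepatocytes, both carry it. All 5 are on the minus strand: Serpina1a at chr12:103863611-103863700, Serpina1b at chr12:103738186-103738275, Serpina1c at chr12:103904948-103905037, Serpina1d at chr12:103773620-103773709 and Serpina1e at chr12:103956946-103957035.
Serpina1a: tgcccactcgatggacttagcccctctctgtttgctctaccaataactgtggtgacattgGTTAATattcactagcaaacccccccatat
Serpina1b: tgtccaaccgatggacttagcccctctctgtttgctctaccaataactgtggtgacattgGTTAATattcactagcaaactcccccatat
Serpina1c: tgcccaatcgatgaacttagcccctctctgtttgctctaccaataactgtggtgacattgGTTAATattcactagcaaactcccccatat
Serpina1d: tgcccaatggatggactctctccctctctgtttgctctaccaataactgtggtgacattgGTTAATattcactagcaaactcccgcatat
Serpina1e: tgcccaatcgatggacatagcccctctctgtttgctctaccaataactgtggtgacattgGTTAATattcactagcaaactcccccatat

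Of the 300 bases of each promoter, 248 could be aligned between Serpina1b and Serpina1e and 244 of these were shared, whereas their RNA levels in mature hepatocytes against hepatoblasts differed in fold, at 2.57 and 30.8. The promoters of Serpina3c and Serpina3n shared 275 of 294 aligned bases, and these 2 genes were at 0.384 and 1345 CPM in the Diff. cells. The 250 bases before each start are shown for that contrast, for Serpina3c at chr12:104153873-104154122 on the minus strand and for Serpina3n at chr12:104406458-104406707 on the plus strand, with the glucocorticoid receptor core motif AGAACA in capitals.
Serpina3c: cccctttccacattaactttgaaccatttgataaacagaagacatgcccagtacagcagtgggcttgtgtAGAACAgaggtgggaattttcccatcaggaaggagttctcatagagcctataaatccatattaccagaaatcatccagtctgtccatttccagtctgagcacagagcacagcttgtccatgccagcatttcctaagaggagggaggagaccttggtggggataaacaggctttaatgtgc
Serpina3n: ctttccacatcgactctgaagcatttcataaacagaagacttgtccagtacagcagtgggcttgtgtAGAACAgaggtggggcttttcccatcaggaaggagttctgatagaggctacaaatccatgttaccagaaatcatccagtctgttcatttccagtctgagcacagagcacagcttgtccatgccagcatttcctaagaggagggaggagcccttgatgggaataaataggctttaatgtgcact

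On either strand, GTTAAT was present in 7.1% of 32851 promoters of this length, and among the 7 serpin promoters it was present in all but that of Serpina3n. AGAACA was present in all 7, against 18.97% of all promoters. The C/EBP letters TTGCNNAA were present in Serpina1a, Serpina1b, Serpina1d and Serpina1e, against 10.8%, and the STAT letters TTCNNNGAA in none, against 8.3%. The letters TATAAA were present in Serpina3c only, against 13.62%. The paralogs are copies of each other, so these matches are not independent, and a match of letters does not show that a factor binds.

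The other clade A serpins, 18 of them in the same cluster, give the setting. Of 20 such genes 13 passed the filter. In Diff. hepatocytes against hepatoblasts, 5 were higher and 3 lower, with a median log2 fold change of -0.03. Those 3 averaged below 1 CPM in every group, and they include the 2 lower in mature hepatocytes. The gene at that median averaged 0.512 CPM in the Diff. cells and 0.525 CPM in the hepatoblasts. In mature hepatocytes against hepatoblasts, 8 were higher and 2 lower, with a median of 1.53, and in Diff. against mature hepatocytes 2 were higher and 4 lower, with a median of -0.29. Over all genes tested, 28.9, 44.8 and 35.8% were called in the 3 comparisons, as given above.

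Serpina12, which encodes the adipokine vaspin, followed Serpina3k in being an adult gene. It was at 90.1, 113, 116 and 60.2 CPM in the mature cells and at or below 0.216 CPM in all other libraries, and the log2 fold change was 9.66 against hepatoblasts (adjusted p = 5.37e-11) and -9.80 in Diff. against mature hepatocytes (adjusted p = 1.44e-10). The pseudogene Serpina4-ps1 was at 131, 463, 363 and 31.8 CPM in the mature cells and at or below 0.0986 CPM elsewhere, and it rose against hepatoblasts with an adjusted p of 1.65e-07. Serpina11 rose in both hepatocyte groups, from 10.8 ± 2.49 CPM in the hepatoblasts to 35.4 ± 2.95 CPM in the Diff. cells (adjusted p = 1.27e-06) and 56.0 ± 10.2 CPM in the mature cells (adjusted p = 2.65e-08). Serpina10, the protein Z-dependent protease inhibitor at the end of the cluster, averaged 289.8, 332 and 309 CPM in the hepatoblasts, Diff. and mature hepatocytes and was called in no comparison, with adjusted p of 0.342 for Diff. hepatocytes against hepatoblasts, 0.638 for mature hepatocytes against hepatoblasts and 0.618 between the hepatocyte groups. Its neighbour is Serpina6.

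Outside the cluster, Agt, which encodes angiotensinogen, rose from 282 ± 69.2 CPM in the hepatoblasts to 626 ± 31.9 CPM in the Diff. cells (adjusted p = 2.70e-05) and 766 ± 90.3 CPM in the mature cells (adjusted p = 1.84e-06). Both calls were lost when library totals were used, at log2 fold changes of 0.85 and 0.60. Serpina7 on the X chromosome encodes thyroxine-binding globulin, another hormone carrier. It was at 5.90 to 9.08 CPM in the hepatoblasts, 54.2 to 87.0 CPM in the Diff. cells and 12.3 to 43.5 CPM in the mature cells. Unlike Serpina6 it rose in Diff. hepatocytes, by a log2 fold change of 3.18 ± 0.35 against hepatoblasts (adjusted p = 4.53e-06) and of 1.57 ± 0.33 against mature hepatocytes (adjusted p = 0.000903).

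**Figure D4:**
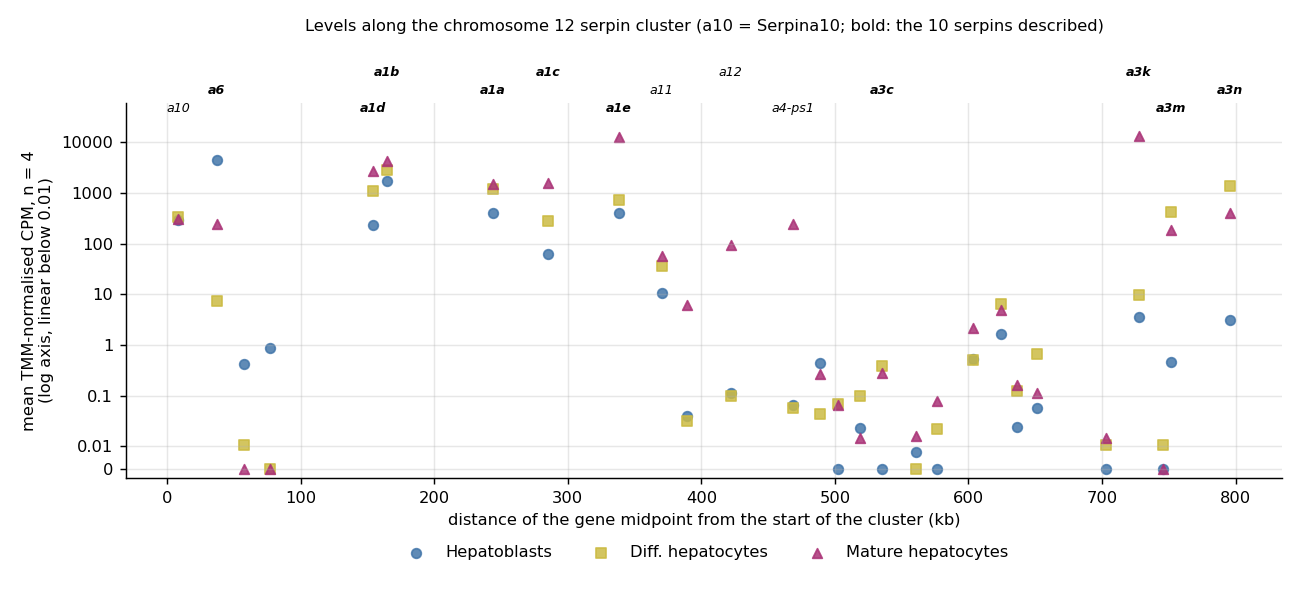
Mean TMM-normalised CPM (log axis, linear below 0.01 CPM) of the 28 Serpina genes of the cluster in the 3 groups (4 libraries each) against the distance of each gene's midpoint from the start of the cluster in kb. Labels shorten Serpina to a, and the 10 serpins described are in bold. Genes of the middle part from Serpina12 to Serpina3c stay below 1 CPM in the hepatoblasts and Diff. hepatocytes, while Serpina12 and Serpina4-ps1 reach 94.9 and 247 CPM in the mature cells.

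Genes around the cluster that are no serpins were counted to see whether the region as a whole differed. Of the 11 tested among 14 protein-coding genes inside the cluster or within 500 kb, 2 were higher and 2 lower in Diff. hepatocytes against hepatoblasts, 4 higher and 1 lower in mature hepatocytes against hepatoblasts, and 0 higher and 2 lower in Diff. against mature hepatocytes. Their median log2 fold changes were -0.00041, 0.03 and -1.11. Of all genes tested, 28.9, 44.8 and 35.8% were called in these comparisons. The gene at the median of -1.11, Asb2, was not called and averaged 0.755 CPM in the Diff. cells and 1.64 CPM in the mature cells. In that comparison the 2 lower genes were Clmn and Ifi27, at -1.65 and -4.93. Dicer1, Ddx24 and Ppp4r4, all above 10 CPM, were at 0.23, 0.08 and -0.02 and were not called. Clmn, which encodes calmin, rose from 11.4 CPM in the hepatoblasts to 82.9 CPM in the Diff. cells (log2 fold change 2.86, adjusted p = 4.11e-08) and 261 CPM in the mature cells (4.51, adjusted p = 3.58e-10). Ifi27, an interferon-inducible gene, was at 3.07, 3.75 and 114.7 CPM in the 3 groups, and it rose in mature hepatocytes against hepatoblasts by 5.22 (adjusted p = 1.72e-10). Ppp4r4 fell in Diff. hepatocytes by 1.25 on the log2 scale (adjusted p = 3.77e-05).

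Several liver transcription factors are known to act on serpin genes. Of 14 tested, 2 were higher and 0 lower in Diff. hepatocytes against hepatoblasts, 5 higher and 0 lower in mature hepatocytes against hepatoblasts, and 1 higher and 5 lower in Diff. against mature hepatocytes, with median log2 fold changes of 0.22, 0.64 and -0.82. The shares of all genes called were 28.9, 44.8 and 35.8%. As a share of the 14, the calls of both directions in the first 2 comparisons lay below them. By direction, the share called higher in mature hepatocytes against hepatoblasts lay above the 20.1% of all genes. The share called lower in Diff. against mature hepatocytes lay above 15.6%. The shares called higher in Diff. hepatocytes lay below 14.9% against hepatoblasts and below 20.2% against mature hepatocytes. None was lower than in hepatoblasts, against 14 and 24.7% of all genes. Cebpa, a master factor of adult liver genes, was at 109, 141, 163 and 189 CPM in the hepatoblasts, 104, 118, 118 and 111 CPM in the Diff. cells and 778, 655, 708 and 1048 CPM in the mature cells. It rose in mature hepatocytes by 2.41 (adjusted p = 4.59e-08) and was not called in Diff. hepatocytes against hepatoblasts (log2 fold change -0.42, adjusted p = 0.0508). Cebpb rose in both, by 1.34 in Diff. hepatocytes (adjusted p = 2.83e-07) and 3.19 in mature hepatocytes (adjusted p = 5.39e-11).

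Hnf4a rose in mature hepatocytes against hepatoblasts by 1.41 (adjusted p = 7.71e-06), a call lost with library totals at 0.56, and was not called in Diff. hepatocytes (0.60, adjusted p = 0.00946). Stat3, the effector of interleukin 6, was called in no comparison, at log2 fold changes of 0.37, 0.13 and 0.24 (adjusted p = 0.0149, 0.339 and 0.0852), the second of which was -0.71 with library totals. Nr3c1, the glucocorticoid receptor, rose in mature hepatocytes against hepatoblasts by 1.13 (adjusted p = 3.05e-08), which fell to 0.28 with library totals. In Diff. hepatocytes against hepatoblasts Nr3c1 had a log2 fold change of 0.14 (adjusted p = 0.151), or -0.18 with library totals. Onecut1 rose in mature hepatocytes against hepatoblasts by 2.42 (adjusted p = 1.24e-05), and Cebpd rose in Diff. hepatocytes by 1.55 (adjusted p = 6.32e-06).

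**Figure D5:**
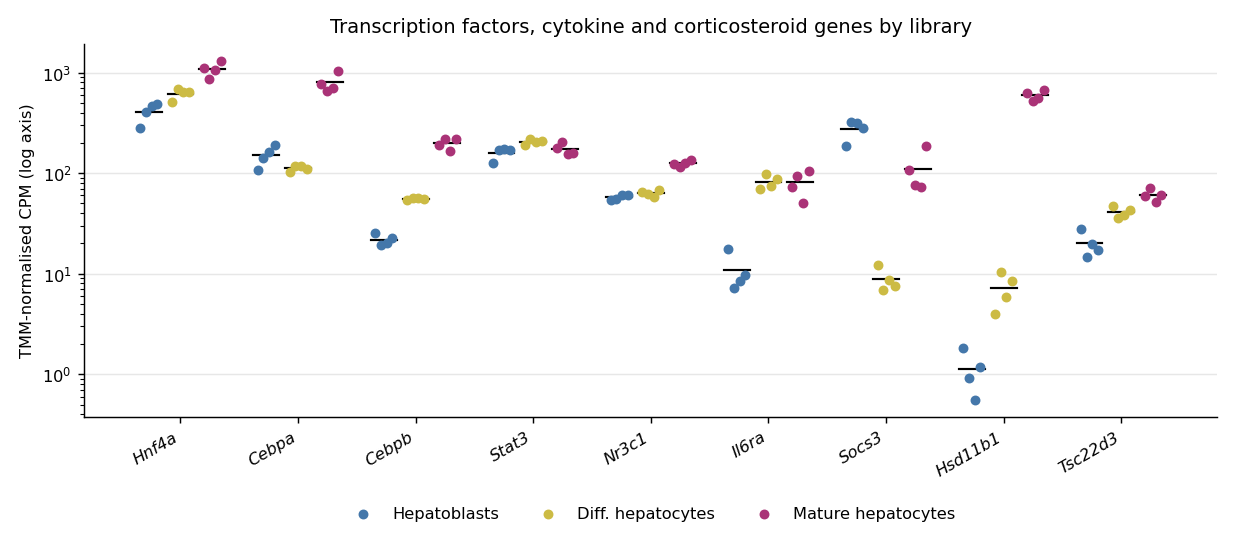
TMM-normalised CPM (log axis) in every library of 5 transcription factors, the interleukin 6 receptor Il6ra and its feedback inhibitor Socs3, and the corticosteroid genes Hsd11b1 and Tsc22d3, with 4 points per group and a black bar at the mean. Cebpa and Hsd11b1 are high in mature hepatocytes only, and Socs3 is lowest in Diff. hepatocytes.

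Serpina3n and other acute-phase genes are induced in liver by interleukin 6. The list examined held 14 receptors, kinases and feedback inhibitors of the interleukin 6 family and of interleukin 1. Of these 14, 4 were higher and 4 lower in Diff. hepatocytes against hepatoblasts, and 5 higher and 3 lower in mature hepatocytes against hepatoblasts. In Diff. against mature hepatocytes 1 was higher and 4 lower. The median log2 fold changes were -0.15, 0.32 and -0.34. Calls over all genes tested stood at 28.9, 44.8 and 35.8% in the same order. The receptor Il6ra rose from 7.28 to 17.7 CPM in the hepatoblasts to 68.9 to 97.5 CPM in the Diff. cells (log2 fold change 2.93, adjusted p = 1.41e-06) and 50.9 to 106 CPM in the mature cells (2.91, adjusted p = 7.08e-07). Socs3, the feedback inhibitor that interleukin 6 signalling induces, fell by 4.96 on the log2 scale in Diff. hepatocytes (adjusted p = 5.43e-08), from 185 to 322 CPM to 6.93 to 12.3 CPM. In mature hepatocytes Socs3 was at 73.1 to 186 CPM, which overlapped with hepatoblasts, and the difference was -1.31 (adjusted p = 0.00101). Osmr, the oncostatin M receptor, rose in Diff. hepatocytes by 3.29 against hepatoblasts (adjusted p = 5.15e-07) and by 2.95 against mature hepatocytes (adjusted p = 1.19e-06).

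Of 17 other acute-phase plasma protein genes, 14 were higher and 0 lower in Diff. hepatocytes against hepatoblasts, and 15 higher and 1 lower in mature hepatocytes against hepatoblasts, with median log2 fold changes of 3.54 and 2.84. Against mature hepatocytes, Diff. hepatocytes were higher in 4 and lower in 5, with a median of 0.43. In these comparisons, taken in the same order, 28.9, 44.8 and 35.8% of all genes tested were called. The 4 higher genes were Lcn2, Saa3, Apcs and Cp. For Lcn2 and Saa3, unlike Serpina3n, mature hepatocytes lay below hepatoblasts in the mean. Lcn2, which encodes lipocalin 2, averaged 17.8, 829 and 7.86 CPM in the hepatoblasts, Diff. and mature hepatocytes. Its log2 fold change in Diff. against mature hepatocytes was 6.72 (adjusted p = 5.62e-07). Saa3 averaged 19.8, 231 and 6.73 CPM, with 5.11 (adjusted p = 3.25e-08). Among the 5 lower genes Saa1 and Saa2 were near 0 in Diff. hepatocytes, at 0.519 and 0.1099 CPM, and averaged 239 and 107 CPM in the mature cells. Those 2 means rested largely on mature replicate 2, which held 789 CPM of Saa1 and 373 CPM of Saa2 against at most 82.3 and 24.3 CPM in the others. In the same library Serpina3n was at 561 CPM, the highest of the mature libraries.

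Corticosteroid genes were examined beside Serpina6. Of 15 receptors, converting enzymes and known targets, 8 were higher and 3 lower in Diff. hepatocytes against hepatoblasts, 10 higher and 1 lower in mature hepatocytes against hepatoblasts, and 3 higher and 6 lower in Diff. against mature hepatocytes, with median log2 fold changes of 1.04, 1.80 and -0.93. Over all genes tested, the called shares were 28.9, 44.8 and 35.8%. The 3 genes higher in Diff. than in mature hepatocytes were Fkbp5, Sgk1 and Zbtb16, each known as a target of the glucocorticoid receptor. Klf9, also a target, was among the 6 lower, at -1.20, a call lost with library totals at -0.67. Zbtb16 rose in Diff. hepatocytes by 6.37 against hepatoblasts (adjusted p = 9.78e-08) and by 1.74 against mature hepatocytes (adjusted p = 0.000807). Sgk1 rose by 2.45 against mature hepatocytes (adjusted p = 1.32e-08). Tsc22d3, another target, was at 14.8 to 27.9 CPM in the hepatoblasts, 36.1 to 46.8 CPM in the Diff. cells and 51.8 to 70.4 CPM in the mature cells. It rose in Diff. hepatocytes by 1.04 (adjusted p = 0.000157), but this call was lost without Diff. replicate 1 at 0.97, without hepatoblast replicate 2 at 0.91, without hepatoblast replicate 4 at 0.98 and with library totals at 0.70. Hsd11b1, the enzyme that regenerates active glucocorticoid, was at 0.550 to 1.84 CPM in the hepatoblasts, 4.02 to 10.5 CPM in the Diff. cells and 525 to 671 CPM in the mature cells. Tat, which encodes tyrosine aminotransferase, rose in Diff. hepatocytes by 8.28 against hepatoblasts (adjusted p = 2.13e-11). It averaged 725 CPM in the Diff. cells and 2412 CPM in the mature cells. Dusp1, a further target, was lower in Diff. hepatocytes than in hepatoblasts, at -1.12, a call lost without hepatoblast replicate 1 at -0.98.

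Of 9 tested proteases known to be bound by clade A serpins, or their partners, 1 was higher and 4 lower in Diff. hepatocytes against hepatoblasts, 4 higher and 3 lower in mature hepatocytes against hepatoblasts, and 0 higher and 2 lower in Diff. against mature hepatocytes, with median log2 fold changes of -0.05, 0.84 and -0.65. Among all genes tested, 28.9, 44.8 and 35.8% were called. The 4 genes of this list lower in Diff. hepatocytes than in hepatoblasts were Elane, Prtn3, Ctsg and Gzmb, proteases of neutrophils, mast cells and lymphocytes. Elane and Ctsg ranged widely in the hepatoblasts, at 1.75 to 25.7 and 1.23 to 20.6 CPM. Of 9 tested neutrophil and mast cell markers, 4 were lower and 5, among them S100a8, S100a9, Ngp and Ltf, were not called. Of all genes tested, 14% were lower. The 12 markers summed to 7.91 to 158.9 CPM in the Diff. cells and 37.0 to 527 CPM in the hepatoblasts. Klkb1, plasma prekallikrein, rose in mature hepatocytes by 2.90 (adjusted p = 1.25e-08) and F11 in Diff. hepatocytes by 1.34 (adjusted p = 3.90e-05). The neutrophil protease Prtn3 fell in Diff. hepatocytes by 3.38 (adjusted p = 0.00419), but hepatoblast replicate 1, with its high neutrophil markers, held 38.4 CPM of it against 2.95 to 5.85 CPM in the others. Without that library the difference was -1.73 (adjusted p = 0.0127). It was also lost without Diff. replicate 1 (adjusted p = 0.0115), 3 (0.0142) or 4 (0.0151), and the count of 5 called in that comparison fell to between 2 and 3 without any 1 of the 4 Diff. libraries or hepatoblast replicate 1.

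Alpha-1-antitrypsin is folded and exported through the endoplasmic reticulum with the help of chaperones and cargo receptors. Of 23 genes of folding, quality control, export and clearance, 3 were higher and 0 lower in Diff. hepatocytes against hepatoblasts, 8 higher and 0 lower in mature hepatocytes against hepatoblasts, and 0 higher and 5 lower in Diff. against mature hepatocytes, with median log2 fold changes of 0.07, 0.70 and -0.14. Called shares over all genes tested in either direction, 28.9, 44.8 and 35.8%, were each higher than those of this list. By direction, the share of the 23 called higher in mature hepatocytes against hepatoblasts lay above the 20.1% of all genes. The share called lower in Diff. against mature hepatocytes lay above 15.6%, and the share called higher in Diff. hepatocytes against hepatoblasts lay below 14.9%. No gene of the list was called in the opposite direction, against 14, 24.7 and 20.2% of all genes. Asgr1, a subunit of the asialoglycoprotein receptor, rose by 3.80 in Diff. hepatocytes (adjusted p = 9.46e-09) and by 6.66 in mature hepatocytes (adjusted p = 4.54e-11). Os9, which takes part in disposal of misfolded glycoproteins, rose by 1.23 (adjusted p = 3.90e-07) and by 1.60 (adjusted p = 1.41e-08), both lost with library totals at 0.92 and 0.75.

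Of 13 serpins of other clades, 5 were higher and 1 lower in Diff. hepatocytes against hepatoblasts, 4 higher and 1 lower in mature hepatocytes against hepatoblasts, and 3 higher and 5 lower in Diff. against mature hepatocytes, with median log2 fold changes of 1.01, 0.15 and -0.58. All genes tested had called shares of 28.9, 44.8 and 35.8%. Serping1, the C1 inhibitor, rose by 2.15 in Diff. hepatocytes (adjusted p = 4.11e-08) and by 3.23 in mature hepatocytes (adjusted p = 4.57e-10), and it was among the 3 genes most like Serpina1d. Serpinc1, antithrombin, rose in mature hepatocytes by 1.93 (adjusted p = 2.50e-07). Serpinh1, a collagen chaperone, fell in mature hepatocytes by 4.36 on the log2 scale (adjusted p = 2.70e-07), and it moved with the mesenchymal marker sum given above, whose part was not tested. Serpinb6a rose by 2.60 in Diff. hepatocytes against hepatoblasts (adjusted p = 4.64e-07).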

How the data were processed

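Total RNA was enriched for poly(A) RNA and sequenced as 75-base single reads. The deposited table holds raw counts per gene, which the authors made with STAR 2.5.2b on GRCm38 and Ensembl release 92 annotation. The submitters' processing notes also list FastQC 0.11.2, Picard 2.10.2 and DESeq2 1.22.2. Whether the counting used strand, and whether duplicate reads were removed, is not given in the sources used here. Symbols, coordinates and sequence overlap came from the GENCODE M21 annotation of GRCm38 and promoters from RefSeq; coding sequences were aligned with MAFFT 7.526.

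Of 53715 genes listed, the 17779 with more than 10 counts in any of the 12 libraries were tested with edgeR 4.0.16 (R 4.3.3): TMM normalisation, quasi-likelihood test, the 3 groups as the only term, and Benjamini-Hochberg adjustment over all genes tested. Adjusted p-values in the report come from this test and measure the spread between 4 libraries per group, described as biological replicates. Calls needed an adjusted p below 0.01 together with a log2 fold change beyond 1 in either direction. On simulated counts for Diff. hepatocytes against hepatoblasts (16461 genes), 194 of 200 genes changed 4-fold were called, with 1 unchanged gene. Libraries held 19581551 to 25216977 counts, so levels below 1 CPM rest on few reads.

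The 10 serpins and all lists were chosen with earlier results of these data known. Named were all 10, other clade A serpins with a group mean of at least 10 CPM, and from each list up to 4 called genes per comparison with the largest fold change and at least 10 CPM, besides fixed genes and the 3 most like each serpin. A few genes that this rule names are not reported here. Apcs, Fkbp5, Dusp1, Elane, Ctsg, Gzmb, Dlk1 and Afp were named after their values were seen. The symbols Tf and Ahsp of the marker lists were not matched. Alternatives were DESeq2 1.42.0, its size factors, library totals, 2 other filters, an adjusted p under 0.05 with no fold threshold, the 8 libraries compared alone, a replicate block and each library left out.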

Additional observations from a re-analysis of the deposited data

Results flagged for a closer look

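Within each group of 4 libraries, the highest and the lowest were compared with their nearest neighbour, and a gap past Dixon's critical value, as a share of the whole range, marked the library as standing apart. Of 252 groups examined, 19 stood apart, where chance alone gives about 1 in 20, or 12.6. Among the serpins described, Serpina3k was at 14.4 CPM in Diff. replicate 1 against 7.55 to 8.65 CPM in the other Diff. libraries, and it held 0.790% of the Serpina3 counts there against 0.432 to 0.474%. Serpina1e held 9.04% of the Serpina1 counts in Diff. replicate 2 against 12.4 to 12.7%.

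Hepatoblast replicate 1 was set apart for 7 values. Its marker sums were 2463 CPM for erythroid cells, 280.3 CPM for macrophages and 527 CPM for neutrophils and mast cells. It was low for Ppp4r4 at 18.8 CPM (others 32.3 to 33.7 CPM) and Stat3 at 126 CPM (168 to 173 CPM), and high for Zbtb16 at 3.58 CPM (0.431 to 0.955 CPM) and Prtn3 at 38.4 CPM (2.95 to 5.85 CPM).

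Mature replicate 2 was high for Saa1 at 789 CPM (23.3 to 82.3 CPM), Saa2 at 373 CPM (9.19 to 24.3 CPM), Lcn2 at 19.0 CPM (3.04 to 5.49 CPM) and Prtn3 at 1.03 CPM (0.206 to 0.248 CPM). Mature replicate 4 was low for Srd5a1 at 130.001 CPM (143.5 to 144.5 CPM), and mature replicate 3 was high for the mesenchymal marker sum at 83.2 CPM (62.1 to 65.4 CPM). Diff. replicate 1 was high for Saa1 at 1.12 CPM (0.296 to 0.344 CPM) and Saa2 at 0.303 CPM (0.0430 to 0.0493 CPM), and Diff. replicate 2 was low for Sgk1 at 148 CPM (195.5 to 197.7 CPM).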

How the results depend on the processing

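Comparisons are named in the order Diff. against hepatoblasts, mature against hepatoblasts, Diff. against mature. Members are the 10 serpins, and values of single genes are log2 fold changes. Replicate numbers were not taken to pair the libraries, since not every same-numbered pair correlated over 0.1 in its deviations from the group means. These pairs were at -0.037 to 0.252, 0.002 to 0.049 and -0.087 to 0.079, and differently numbered pairs at -0.311 to 0.202, -0.083 to 0.050 and -0.154 to 0.17. In the first comparison replicates 1, 3 and 4 correlated at 0.242, 0.252 and 0.201 with their own number and replicate 2 at -0.037. With a replicate block, 5220, 7988 and 6359 genes were called (without it 5145, 7971 and 6362), the member medians were 1.89, 4.79 and -0.97, and no list count moved by over 1.5 times. An adjusted p under 0.05 with no fold threshold called 10615, 12870 and 11580 genes. In the first comparison it called 7 regulators, 8 proteases and 11 folding genes. In the second it called 11 regulators, 17 folding genes and 8 other serpins. In the third it called 4 genes near the cluster, 11 regulators, 9 interleukin signalling genes, 15 acute-phase genes, 14 corticosteroid genes, 6 proteases and 13 folding genes. Keeping genes with at least 10 counts in every library, which removes Serpina3c and others absent from 1 group, left 2634, 4379 and 3107 calls and member medians of 1.58, 4.48 and -1.21. It left 4, 4 and 1 other clade A serpins, 2 and 3 genes near the cluster and 1 and 4 proteases in the first 2 comparisons, and 4 serpins of other clades in the third. Library totals gave member medians of 1.56, 3.95 and -0.43 and moved the share of calls that were higher from 51.5, 44.9 and 56.4% to 35.4, 20.2 and 75.6%. They left 1 folding gene in the first comparison, 6 other clade A serpins, 3 regulators and 4 proteases in the second, and 5 serpins of other clades in the third. With library totals, Serpina10 was at -0.11 and -0.73 in the first 2 comparisons, Agt at 0.24 in the third, Nr3c1 at -0.18 in the first and Stat3 at -0.71 in the second, all of the other sign than under TMM, as were other uncalled values of the serpins and named genes (15 in all). Under the filter on every library Serpina10 was at -0.027 in the second. With only the 8 libraries compared, 2 proteases were called in the first, and DESeq2 called 4 in the third. Leaving out 1 library at a time gave 2 to 5 proteases in the first comparison and 2 to 4 genes near the cluster in the third (4 without Diff. replicate 1), against 5 and 2. It gave member medians of 1.77 to 2.02, 4.67 to 4.94 and -1.01 to -0.88. It turned the sign of 9 uncalled values: in the first comparison Serpina12 (-0.82 to 0.26), Serpina4-ps1 (-0.50 to 0.22), Proc (-0.16 to 0.074) and Asgr2 (-0.093 to 0.18), in the second Serpina10 (-0.081 to 0.19) and Sgk1 (-0.17 to 0.052), and in the third Il6ra (-0.15 to 0.17), Ppp4r4 (-0.12 to 0.030) and Atf6 (-0.13 to 0.012). Over the 10 serpins and the named genes (66 genes) in the 3 comparisons, a call was lost in 36 and gained in 17 of 2943 pairs of a value and an alternative with the same call thresholds, 22 of the losses with library totals. Where a count moved, the cause was not tested unless the setting itself removes genes or samples. Depth limits Serpina3c, at most 11 counts per library.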

Other observations

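Mature replicate 4 held an end position among the 4 mature libraries for several clade A serpins. It was the lowest for Serpina1e at 7433 CPM (others 9914 to 16617 CPM), Serpina3k at 9051 CPM (14021 to 16034 CPM), Serpina12 at 60.2 CPM (90.1 to 116 CPM), Serpina9 at 1.74 CPM (4.53 to 10.7 CPM) and Serpina4-ps1 at 31.8 CPM (131 to 463 CPM). It was the highest for the hormone carriers Serpina6 at 431 CPM (150.4 to 225 CPM) and Serpina7 at 43.5 CPM (12.3 to 18.7 CPM). The same library was also the highest for Serpina1b at 4723 CPM, Serpina1d at 2872 CPM and Serpina3m at 230.4 CPM, which are no hormone carriers. These genes were picked after their values were seen, and no test was made.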
